A study of Rattus norvegicus with 15 samples.

Results

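Genes of the endothelin and natriuretic peptide pathways were examined in kidneys of 5-week-old rats. The members were 9 listed genes: the peptides Edn1, Edn3 and Nppa, the endothelin converting enzyme Ece1, the endothelin receptors Ednra and Ednrb, and the natriuretic peptide receptors Npr1, Npr2 and Npr3. Every probe set whose symbol in the platform annotation was a listed gene was taken, which gave 16 of 26202 probe sets (controls left out), 15 on array A, 1 on array B and 0 on array C. They stood for 7 of the 9 genes. Ednra and Ednrb were carried by no probe set of the annotation used here and were not analysed. None of the 9 genes lies on chromosome 10.

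Dahl salt-sensitive (Dahl S) kidneys, from an inbred rat line that becomes hypertensive on a high-salt diet, were profiled along with kidneys of a strain congenic for chromosome 10, which carries a donor segment of that chromosome on the Dahl S background. Each of 3 oligonucleotide array designs, A, B and C, received 5 arrays of total RNA, numbered by kidney. Kidneys 1 to 3 were Dahl S on each design (n = 3), and kidneys 4 and 5 were congenic on B and C (n = 2). On A kidneys 4 and 5 are described as Dahl S, against the same numbers on B and C, so their strain was treated as unsettled and each of their values is given alone. The labels give neither the donor strain, the extent of the segment, the diet or the sex, nor whether a kidney number stands for 1 animal. The p-values therefore measure only how far these arrays differ, a spread that may be technical.

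Endothelins are short vasoconstrictor peptides cut from larger precursors by the membrane metalloprotease Ece1. In the kidney they act through Ednra on vascular smooth muscle, where they constrict, and through Ednrb on endothelium and collecting duct, where they dilate vessels and inhibit sodium uptake. Natriuretic peptides oppose them: Nppa, the atrial peptide, is made mainly in the heart, reaches the kidney with the blood and activates Npr1, a receptor with its own guanylyl cyclase, so that cGMP raises sodium excretion. Npr2 is the related cyclase receptor for C-type natriuretic peptide, and Npr3 lacks the cyclase and removes the peptides from the circulation.

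Signal is given in the deposited intensity units. On array A, values under 85.1 (the 25th percentile of the 5 arrays, used as a floor) have no order, and a mean over the kidneys of 319.5 (the median of all values) was the filter. Array A held 15 control probe sets whose names mark the opposite strand; of their 75 values 43 lay below the floor and 2 reached the filter, with a median of 54.3 and a highest value of 442. The kidneys had the marker genes of their tissue: all 11 proximal tubule probe sets (Slc34a1, Lrp2, Slc5a2, Slc22a6, Aqp1) and all 5 of the thick ascending limb and distal tubule (Umod, Slc12a1, Slc12a3, Calb1) reached the filter on A. Of 5 collecting duct probe sets 4 reached it (Aqp2, Aqp3, Scnn1g; not Scnn1b), and of 5 endothelial ones 3 (Pecam1, Flt1, Kdr; not the 2 for Vwf). Of markers of other cells, those of leukocytes (0 of 3) and fat (0 of 2) did not reach it on A, 1 of 5 adrenal ones did (Th), and both blood ones did (Hbb, Alas2). Leukocytes were represented on A by Ptprc alone; on B and on C 3 of 5 leukocyte probe sets passed the filter (among them Fcer1g at 4612 to 6696 on B), and 1 of 2 for the fat marker Adipoq passed on C (401 to 645).

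The receptor Npr1 and the enzyme Ece1 gave clear signal on array A in all 5 kidneys, and the atrial peptide Nppa did not. Of the 15 member probe sets there, 7 reached the filter (2 for Ece1, 3 for Npr1, 1 each for Edn3 and Npr2), beside 50.5% of all probe sets of the design. Of the other 8, 4 lay below the floor in all 5 kidneys. In all kidneys 6 probe sets, those of Ece1 and Npr1 and 1 of Edn3, lay above every opposite-strand control of the same array. The margin was narrow for Ece1 rc_AA956930_s_at in kidney 3 (372.9 against 372.2) and for Edn3 E02223cds_f_at in kidney 1 (462.2 against 442.2). Signal is not compared between probe sets, since each has its own affinity, and in whole kidney fewer cells of a type and less RNA per cell cannot be told apart.

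**Figure D1:**
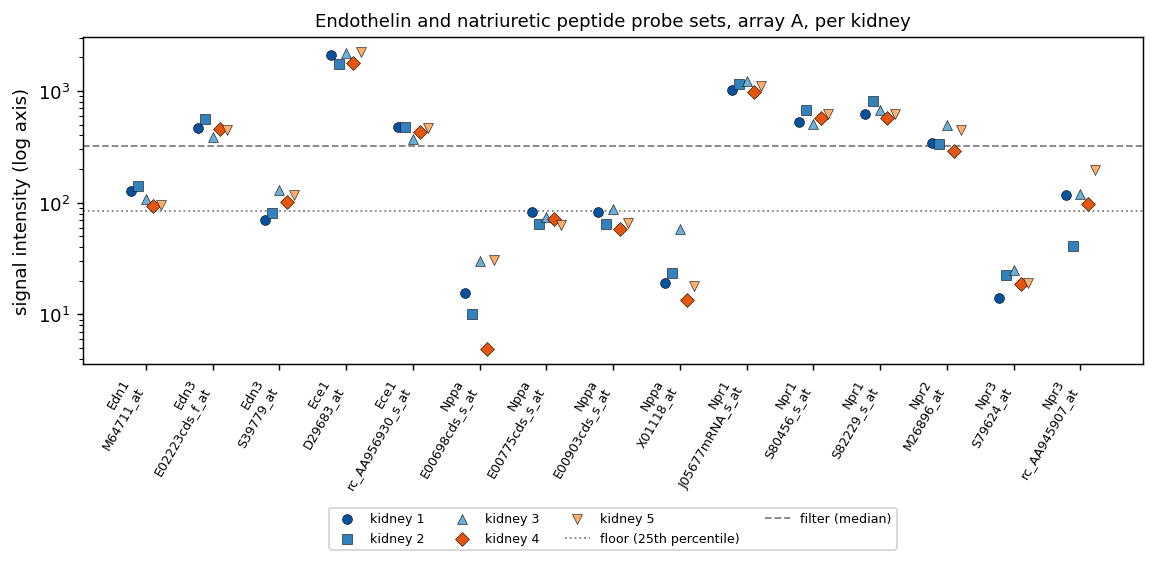
Signal intensity (log axis) of the 15 member probe sets of array A, 1 point per kidney, with the floor (85.1, dotted) and the filter (319.5, dashed). Blue points are Dahl S kidneys 1 to 3 and orange points kidneys 4 and 5, whose strain is unsettled on this array. The probe sets of Npr1 and Ece1 lie above the dashed line in every kidney, and those of Nppa lie at or below the dotted line except for 1 value.

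Edn1, the main endothelin of vessels and collecting duct, lay just above the floor. Its probe set M64711_at read 128, 141 and 108 in Dahl S kidneys 1 to 3 (mean 126 ± 16.5, SD, n = 3), 92.8 in kidney 4 and 96.0 in kidney 5. Both kidneys 4 and 5 thus lay below the range of the Dahl S kidneys, by less than the SD. In no kidney did Edn1 exceed the highest opposite-strand control of its array, so a difference between kidneys cannot be read at this signal. With quantile normalisation kidney 4 moved to 104, inside the Dahl S range of 101 to 136, while kidney 5 stayed below it at 89.4. With the arrays scaled to the same median both stayed below the range, at 100.9 and 93.7 against 103.4 in Dahl S kidney 3.

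Edn3, the endothelin with a preference for Ednrb, was represented by probe sets that gave different pictures. E02223cds_f_at, which the _f_ in its name marks as able to bind several members of a gene family, read 462, 567 and 385 in Dahl S kidneys 1 to 3 (471 ± 91.7, SD, n = 3), 458 in kidney 4 and 445 in kidney 5. S39779_at, without that mark, read 70.4, 80.5 and 131, then 102 and 117, so that kidneys 1 and 2 were under the floor. The kidney lowest on the first, kidney 3, was the highest on the second. Whether the signal of the first probe set comes from Edn3 alone was not tested. Nor was it tested whether member probe sets with _s_ in their names read 1 gene alone. Among these were all of Npr1, and rc_AA956930_s_at and rc_AA900686_s_at of Ece1.

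Nppa, the atrial natriuretic peptide, was below the floor on all 4 of its probe sets except for 1 value. The highest of its 20 values was 87.1, in kidney 3 on E00903cds_s_at, and it was the 1 value above the floor. That probe set read 82.7, 64.9 and 87.1 in Dahl S kidneys 1 to 3, 57.7 in kidney 4 and 65.7 in kidney 5. E00775cds_s_at read 63.6 to 82.0, X01118_at 13.4 to 58.6 and E00698cds_s_at 4.9 to 30.9 over the 5 kidneys. No order of kidneys can be read from values below the floor, and by that floor Nppa messenger was not detectable. E00775cds_s_at and E00903cds_s_at exceeded the median opposite-strand control of the same array in all 5 kidneys. No Nppa probe set exceeded the highest such control in any kidney. Markers of heart muscle, the main source of the peptide, were also low on A: of 10 probe sets for Myh6, Myl4, Myl7, Tnni3 and Tnnt2 none reached the filter and 5 were below the floor in all kidneys (summed signal 760 to 1276 in kidneys 1 to 3, 857 in kidney 4, 925 in kidney 5, none at 0). On B and C the Myh6 probe sets rc_AI009388_at, at 1118 to 1595, and rc_AI232024_f_at, at 480 to 711, reached the filter of their designs, while another, rc_AA819464_at on C, read 19.3 to 42.9.

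Ece1, which releases active endothelin from its precursor, was measured by 3 probe sets and was the 1 member on a design where strains could be compared. On array A, D29683_at read 2093, 1757 and 2204 in Dahl S kidneys 1 to 3 (2018 ± 232, SD, n = 3), 1773 in kidney 4 and 2238 in kidney 5. Kidney 4 lay in the Dahl S range, and kidney 5 lay above it by less than the SD. The second probe set of that design, rc_AA956930_s_at, read 479, 480 and 373 (444 ± 61.6, SD, n = 3), then 429 and 464, both inside the Dahl S range.

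On array B, rc_AA900686_s_at read 676, 786 and 714 in the Dahl S kidneys (725 ± 56.1, SD, n = 3) and 650 and 699 in the congenic kidneys 4 and 5 (674 ± 35.1, SD, n = 2). Congenic kidney 4 was the lowest of the 5, but congenic kidney 5 lay above Dahl S kidney 1, so the strains overlapped. The log2 difference, congenic minus Dahl S, was −0.10 (SE 0.14, 95% confidence interval −0.43 to 0.22, limma adjusted p = 0.998). The interval runs from a fold of 0.742 to 1.17, so these 5 arrays leave unsettled whether Ece1 changed within that range, in either direction. Of the 4385 probe sets tested on B, 4 passed the threshold (0.0912%), 3.49% had an unadjusted p under 0.05 and 17.2% did not overlap between strains; the Ece1 probe set was in none of these. A larger difference, in either direction, was found for 55.9% of the tested probe sets. Endothelial markers, a cell type in which Ece1 is abundant, summed to 4340 to 5474 in the Dahl S kidneys of array B and to 5837 and 5043 in the congenic kidneys (6 probe sets of Pecam1, Tek and Cdh5, 4 of them past the filter, none at 0); their part in the Ece1 values was not tested.

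Npr1, the cyclase receptor through which the atrial peptide acts on the kidney, reached the filter on each of its 3 probe sets. J05677mRNA_s_at read 1025, 1163 and 1238 in Dahl S kidneys 1 to 3 (1142 ± 108, SD, n = 3), 984 in kidney 4 and 1112 in kidney 5. S82229_s_at read 628, 809 and 674 (704 ± 94.1, SD, n = 3), then 576 and 627. S80456_s_at read 524, 680 and 508 (571 ± 94.8, SD, n = 3), then 577 and 619. On all of these probe sets kidney 1 was lower than kidney 2. Kidney 4 lay below the Dahl S range on J05677mRNA_s_at and S82229_s_at and inside it on S80456_s_at, and kidney 5 lay just under kidney 1 on S82229_s_at and otherwise inside the range.

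Npr2, the receptor of C-type natriuretic peptide, had 1 probe set, M26896_at, with 342, 339 and 497 in Dahl S kidneys 1 to 3 (393 ± 90.7, SD, n = 3), 291 in kidney 4 and 452 in kidney 5. Kidney 3 stood above the other Dahl S kidneys, and kidney 4 below all of them. Its signal exceeded every opposite-strand control of the same array in 3 of the 5 kidneys. Npr3, the clearance receptor, which is known from podocytes, did not reach the filter. Its probe set rc_AA945907_at read 117, 41.3 and 119 in kidneys 1 to 3, 97.2 in kidney 4 and 197 in kidney 5, with kidney 2 under the floor and kidney 5 highest. S79624_at read 13.9 to 25, below the floor in all kidneys, so Npr3 was not detectable there. Of the podocyte markers on array A, Synpo reached the filter and none of the 3 Wt1 probe sets did; Podxl passed the filters of B (rc_AA964715_at, 2469 to 5106) and C (rc_AI111966_at, 777 to 1887).

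The probe sets of one gene did not place the kidneys alike. On Ece1, kidney 2 was at 87.1% of the Dahl S mean for D29683_at, at 108% for rc_AA956930_s_at and at 108% for rc_AA900686_s_at of array B, while kidney 3 was at 109%, 84.0% and 98.4%. On Npr1, kidney 2 was at 102%, 119% and 115% for J05677mRNA_s_at, S80456_s_at and S82229_s_at, and kidney 3 at 108%, 89.0% and 95.8%. The pair of Ece1 probe sets on array A agreed neither on the highest nor on the lowest Dahl S kidney, and of the 3 pairs for Npr1, 1 agreed on the highest and 1 on the lowest. Over all 1197 such pairs on array A, from 743 genes with more than 1 probe set past the filter, 45.9% agreed on the highest Dahl S kidney and 45.5% on the lowest. No full order of the Dahl S kidneys, from lowest to highest, was thus shared by all probe sets of Ece1 or by all of Npr1, although kidney 1 was below kidney 2 on all of Npr1.

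**Figure D2:**
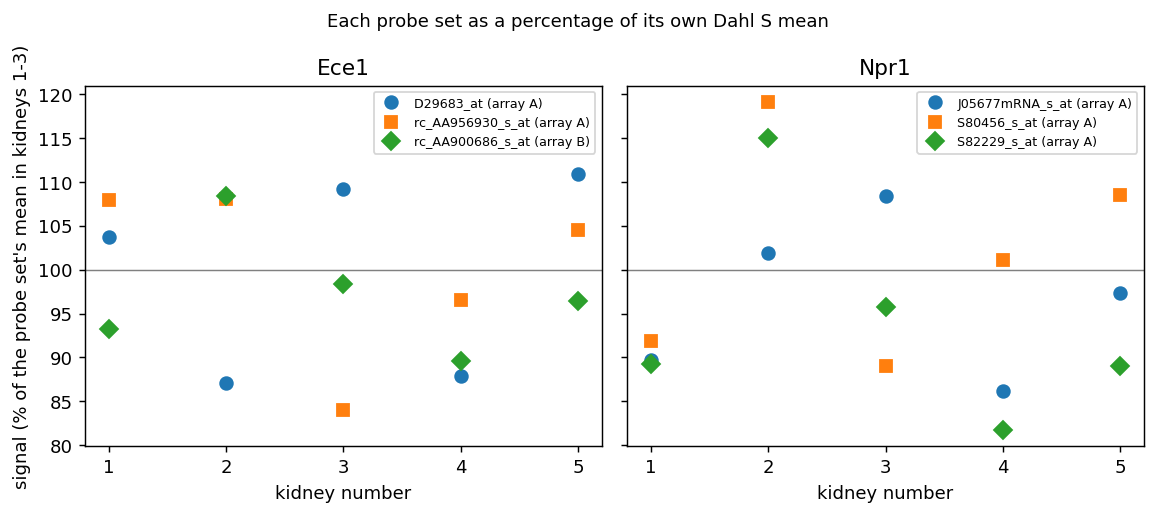
Signal of each Ece1 (left) and Npr1 (right) probe set in kidneys 1 to 5, as a percentage of its own mean over Dahl S kidneys 1 to 3 (grey line at 100). For Ece1 the marks of kidney 2 run from 87.1% to 108% and those of kidney 3 from 84.0% to 109%, in different orders.

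The spread of the members between Dahl S kidneys was close to that of the array as a whole. For the 7 probe sets past the filter on A, the highest of kidneys 1 to 3 was 1.21 times the lowest (Npr1, J05677mRNA_s_at) to 1.47 times (Edn3, E02223cds_f_at), with a median of 1.29. Over all 4411 probe sets past the filter the median ratio was 1.29 as well (quartiles 1.17 and 1.46). The coefficient of variation was 9.45% to 23.1%, with a median of 13.9%, beside 13.1% over all. Npr2 and the family probe set of Edn3 were at the upper end, and the probe sets of Npr1 and Ece1 lay below them.

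Of the other genes of these pathways, furin and neprilysin were among those with clear signal, and the other natriuretic peptides were not. Furin, a convertase that cuts the endothelin precursors before Ece1, read 1491, 1841 and 1279 in Dahl S kidneys 1 to 3 on X55660_at. Kidneys 4 and 5 read 1836 and 1717 there, inside that range. On X55660_g_at furin read 2660, 2995 and 1841, then 3542.5 and 2838, with kidney 4 above the Dahl S range. Both probe sets were highest in kidney 2 and lowest in kidney 3 of the Dahl S kidneys. Neprilysin (Mme), which degrades both natriuretic peptides and endothelins at the proximal tubule brush border, read 1905, 1751 and 1895 on M15944_at, then 1526 and 2208; on both of its probe sets of array A kidney 4 was the lowest of the 5. The protease Ide read 569, 674 and 669 on X67269_at, then 641 and 724, with kidney 5 above the Dahl S range. On rc_AI178921_s_at Ide read 231, 448 and 393, then 298 and 298, inside a Dahl S range of 1.94-fold, beside 1.18-fold on the first probe set. Pcsk6 passed the filter on both of its probe sets. On rc_AI230712_at it read 839, 906 and 977, then 1053 and 636, with kidney 4 above the Dahl S range and kidney 5 below it. On D31854_s_at Pcsk6 read 416, 398 and 505, then 500 and 519, with kidney 5 above the Dahl S range.

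The brain-type peptide Nppb lay below the floor in 4 of 5 kidneys on rc_AA799498_at, the exception being kidney 5 at 107. The C-type peptide Nppc read 185 to 252 on E04009cds_s_at and 61.8 to 203 on D90219_at, below the filter. Edn2, the endothelin best known from gut and ovary, read 114 to 224. Guca2b and Gucy2c also lay below the filter, with highest values of 230 (kidney 4) and 205 (kidney 1). Guca2a (guanylin), a gut peptide that also acts on renal sodium handling, read 401, 197 and 333 in Dahl S kidneys 1 to 3, 258 in kidney 4 and 439 in kidney 5, the widest spread between Dahl S kidneys of those past the filter in this list (2.03-fold). In all, 9 of 15 probe sets of processing, clearance and further ligands passed the filter on A, from 5 of 10 genes measured there, and 6 of 24 of the signalling list (G proteins, phospholipase C beta, inositol trisphosphate receptors, cGMP kinases and phosphodiesterases).

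**Figure D3:**
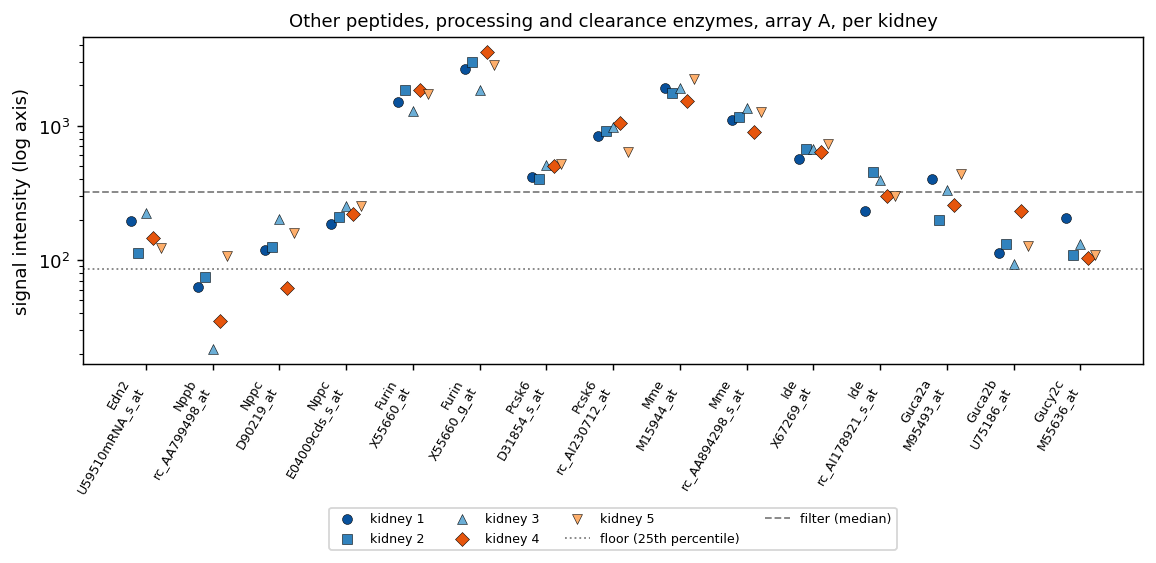
Signal intensity (log axis) per kidney of the 15 probe sets of further ligands, processing and clearance enzymes on array A, with the floor (85.1, dotted) and the filter (319.5, dashed). Furin and Mme lie above the dashed line in every kidney, and Nppb lies below the dotted line in all but kidney 5.

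On arrays B and C none of the wider pathway probe sets passed the threshold for a strain difference (0 of 2 tested on B, 0 of 6 on C, limma; at an unadjusted p under 0.05, 0 and 1). On C none of the 4420 tested probe sets passed (0%), 6.2% had an unadjusted p under 0.05 and 22.4% did not overlap between strains. Those with an unadjusted p under 0.05 included 1 of the 6 on C, Pde9a, a phosphodiesterase specific for cGMP, the messenger that Npr1 makes. It read 581, 654 and 563 in the Dahl S kidneys and 758 and 753 in the congenic kidneys, without overlap (log2 difference 0.34, SE 0.14, 95% confidence interval 0.01 to 0.66, limma adjusted p = 0.786).

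The other signalling probe sets tested on C did not overlap either and were also higher in the congenic kidneys. Of the 4 signalling probe sets on C, 3 were tested, and that below the filter overlapped between strains. Plcb3, a phospholipase C of endothelin signalling, read 1446, 1431 and 1338 against 1580 and 1673 (log2 difference 0.21, limma adjusted p = 0.865), and Gna11, a G protein that couples endothelin receptors to it, 836, 879 and 941 against 984 and 952 (log2 difference 0.13, limma adjusted p = 0.887). The median log2 difference of these 3 was 0.21, beside −0.01 over all tested probe sets of C, where differences of either sign offset each other. Without regard to sign, the median over all tested probe sets of C was 0.13. A larger difference, in either direction, was found for 13.6% of them in the case of Pde9a, 29.6% for Plcb3 and 51.0% for Gna11. The ratio of the 3′ to the 5′ GAPDH control on the same arrays was 1.09 to 1.11 in the Dahl S kidneys and 1.05 in each congenic kidney, and its part in these differences was not tested.

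For the degrading and converting enzymes tested on C the strains overlapped. Mme read 10029, 7379 and 9948 in the Dahl S kidneys and 7563 and 11055 in the congenic kidneys, a log2 difference of 0.02 (95% confidence interval −0.49 to 0.53). Ide read 1922, 1581 and 2342 against 1760 and 1463 (−0.26, interval −0.72 to 0.20), and Ece2, a relative of Ece1, 728, 782 and 994 against 838 and 680 on rc_AI229953_at (−0.13, interval −0.56 to 0.30). Other probe sets of this list lay below the filter of C and were not tested. The share of all probe sets below the filter without overlap was not counted, so the lack of overlap in 2 of them cannot be weighed. Ece2 read 523, 497 and 482 against 309 and 464 on rc_AI229832_at, and Kel, a relative of Ece1 known as a blood group antigen, read 304, 276 and 224 against 339 and 341 on rc_AI177384_at. The other Kel probe set, rc_AI179459_at, overlapped (88.1 to 188 against 169 and 142). On B, Gna12 read 5721, 5357 and 5452 against 5019 and 6370 (log2 difference 0.04, interval −0.33 to 0.40), and the inositol trisphosphate receptor Itpr2 393, 644 and 510 against 516 and 438 (−0.09, interval −0.63 to 0.45). The intervals of Mme, Ide, Ece2, Gna12 and Itpr2 are all wider than that of Ece1.

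**Figure D4:**
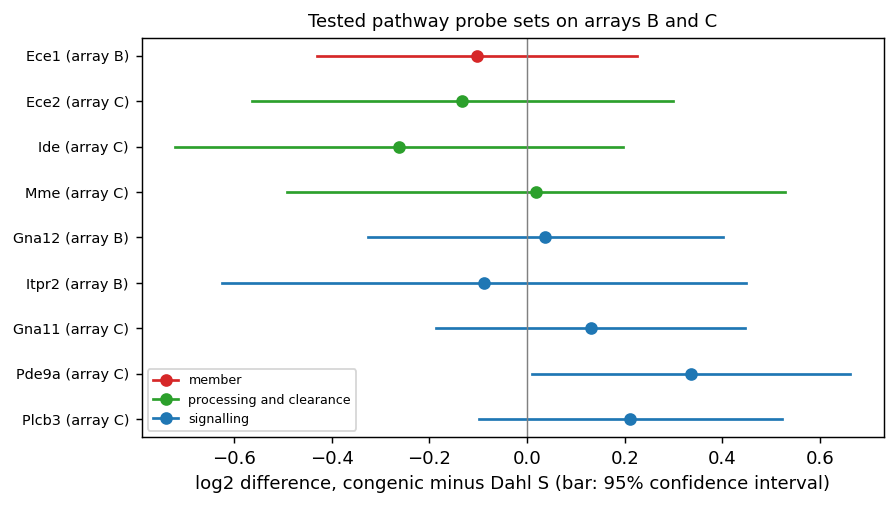
Log2 difference, congenic minus Dahl S, of the 9 tested pathway probe sets of arrays B and C, with 95% confidence intervals from limma (3 Dahl S and 2 congenic kidneys). The interval of Ece1 runs from −0.43 to 0.22 and includes 0; that of Pde9a, 0.01 to 0.66, lies just above 0 before adjustment over all probe sets.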

How the data were processed

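The authors deposited 1 linear signal intensity for each probe set; their software is not given in the sources used here. Each array had been scaled by the authors before deposit, as a mean trimmed by 2% at either end lay between 999.8 and 1000.0 on every array; whether a background was subtracted is unknown. Array medians spanned 294.5 to 334.3 (A), 472.8 to 519.5 (B) and 491.3 to 524.4 (C), and the number of arrays limits precision.

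Each design was analysed alone. Values were raised to the floor (85.1, 140.1 and 153.6 on A, B and C) and taken to log2, and probe sets with a mean at or above the median (319.5, 485.8 and 510.3) were tested. Strains were compared with limma 3.58.1 (R 4.3.3, lmFit and eBayes), with Benjamini-Hochberg adjustment over all tested probe sets of a design and a threshold of 0.05; the procedure was tested on simulated data. Array symbols were updated by gene identifier to RefSeq (GRCr8), for 6985 of 7006, 5333 of 5351 and 5804 of 5821 probe sets with 1 symbol. The 308, 38 and 45 with several were not named.

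Members and gene lists were chosen with earlier results of these data known. Named were all member probe sets, processing and clearance genes with a probe set, and signalling genes past the threshold. If none passed, the 3 of smallest p per design were named. Alternatives were quantile or median scaling, floors at the 10th and 40th percentile, no filter or one at the 75th percentile, an intensity trend, array weights, and leaving out each kidney.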

Additional observations from a re-analysis of the deposited data

How the results depend on the processing

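The strain difference of Ece1 on array B kept its sign and stayed short of the threshold in all 12 alternatives run (log2 difference −0.16 to −0.04, limma adjusted p 0.915 or above); it fell short of the 75th percentile filter and has no value there. The Dahl S means of the member probe sets on A had 75 alternative values, under other scalings or without 1 kidney. All 75 lay within 1 SD of the value given. For the means without 1 kidney this had to be so, since leaving out 1 of so few kidneys cannot move a mean by 1 SD. Those means therefore do not show how stable the values are, and only the means under other scalings could have failed. The number of calls on array B, 4 as given, was 1 with median scaling, quantile normalisation, array weights, the filter at the 75th percentile or the floor at the 10th or 40th, and 0 to 31 without 1 kidney (31 without congenic kidney 5). On array C, with 0 as given, it was 2 without a filter, 1 with an intensity trend, and 0 to 35 without 1 kidney (35 without congenic kidney 5). Small differences turned sign: Mme to −0.014 with median scaling, −0.015 with array weights and −0.26 to 0.29 without 1 kidney, Gna12 at −0.13 to 0.21, Itpr2 at −0.27 to 0.029 and Ece2 at −0.28 to 0.018 without 1 kidney; the cause was not tested. Pde9a, Plcb3, Gna11 and Ide kept their signs. No paired analysis was possible because the strains compared share no kidney number. Signals near the floor limit what can be read for Edn1, Nppa and Npr3.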

Other observations

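Kidneys 4 and 5 of array A belong to no group, and their place was counted against the range of Dahl S kidneys 1 to 3. Of the 7 member probe sets past the filter, kidney 4 lay below that range for 3 (J05677mRNA_s_at and S82229_s_at of Npr1, M26896_at of Npr2), within it for 4 and above it for 0. Over all 4411 probe sets past the filter, kidney 4 lay below for 32.5% and above for 21.7%. Kidney 4 also had the lowest median of the arrays of A (294.5), and with the arrays brought to the same median it lay below for 2 members (S82229_s_at and M26896_at) and 18.1% of all probe sets, and above for 0 members and 39.1% of all. With quantile normalisation kidney 4 lay below for 3 members and 28.4% of all, and above for 0 members and 24.4% of all. On the deposited values kidney 5 lay below for 1 member, within for 5 and above for 1, beside 22.7%, 52.1% and 25.2% of all. With quantile normalisation kidney 5 lay above for 0 members. The GAPDH control gave a ratio of 3′ to 5′ signal of 1.04 in both kidneys and 1.06 to 1.07 in kidneys 1 to 3.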
